A study of Mus musculus with 4 samples.

Results

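Hemoglobin mRNA was followed in the dorsal hippocampus and the surrounding brain through 5 genes: the adult alpha-globin genes Hba-a1 and Hba-a2, the adult beta-globin genes Hbb-bs and Hbb-bt, and Alas2, which encodes the erythroid enzyme of the initial step of heme synthesis. The 5 symbols were matched exactly among the 32285 genes of each count table, and all 5 were found. They had been picked with their levels by section and region, their correlation across spots and their difference between conditions already known, so these quantities are given as descriptions, with no test. Genes that played no part in that choice were tested.

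The samples were 4 coronal brain sections, 1 from each of 4 male ArcCreERT2::eYFPflx mice on a C57BL/6 background, 3 to 4 months old. These mice carry a Cre that tamoxifen activates, expressed from the promoter of Arc, and it switches on eYFP in cells active at the time. Trained 1 and trained 2 came from mice trained in active place avoidance, in which a mouse learns to stay out of a shock zone on a rotating arena. Untrained 1 and untrained 2 came from mice placed in the same arena without an active shock zone. All 4 mice received 4-hydroxytamoxifen before a retention test and were killed 3 days after it. The brains were removed and frozen in embedding medium, and the methods describe no flushing of the blood vessels beforehand. Each group thus held 2 mice. The labels call the tissue hippocampus, and its cell layers, CA1, CA3 and DG, made up 905 of the 10940 spots, the rest being led by genes of cortex, thalamus, hypothalamus and other parts of a coronal section.

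Red blood cells lose their nucleus before they enter the circulation, but the youngest of them, the reticulocytes, still carry mRNA, nearly all of it globin. A hemoglobin tetramer pairs alpha with beta chains, each holding a heme group, and the chains are encoded in separate gene clusters. In brain tissue that has not been perfused, globin mRNA is known mainly as a trace of the blood left in vessels, meninges and choroid plexus, although some neurons and glia have been described to make small amounts of it. The number of blood cells in a spot and the amount of mRNA per cell cannot be told apart in these counts.

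The alpha genes lie 12 kb apart on chromosome 11 in the mouse build GRCm38 (GENCODE vM21), Hba-a1 (ENSMUSG00000069919) at chr11:32283511-32284465 and Hba-a2 (ENSMUSG00000069917) at chr11:32296489-32297298, both on the plus strand. The beta genes lie 12.5 kb apart on the minus strand of chromosome 7, Hbb-bs (ENSMUSG00000052305) at chr7:103826534-103828096 and Hbb-bt (ENSMUSG00000073940) at chr7:103812524-103813996. Alas2 (ENSMUSG00000025270) lies at chrX:150547375-150570638 on the plus strand. The globin mRNAs have 3 exons and are 554 to 703 bases long, and that of Alas2 has 11 exons and 2037 bases.

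The 100 bases before the RefSeq start of each gene (RefSeq, GRCm38.p6) are shown because the 4 globin genes hold the same set of boxes there, in a different order in the alpha and the beta genes, and Alas2 does not. Capitals mark matches on either strand to a CACCC box, to a CCAAT box, to a TATA box spelled TATAA, or to a GATA site spelled GATAA, and in Hbb-bt a reverse match to the second of these runs into a forward match. In the order listed, the windows are chr11:32283572-32283671 and chr11:32296392-32296491 on the plus strand, chr7:103827929-103828028 and chr7:103813924-103814023 on the minus strand, and chrX:150547317-150547416 on the plus strand.
Hba-a1: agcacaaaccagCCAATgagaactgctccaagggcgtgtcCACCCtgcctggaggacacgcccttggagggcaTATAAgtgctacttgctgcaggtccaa
Hba-a2: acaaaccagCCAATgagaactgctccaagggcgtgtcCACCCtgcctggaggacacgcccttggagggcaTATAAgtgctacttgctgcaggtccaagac
Hbb-bs: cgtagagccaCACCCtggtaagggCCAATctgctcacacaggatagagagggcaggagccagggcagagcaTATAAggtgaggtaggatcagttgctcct
Hbb-bt: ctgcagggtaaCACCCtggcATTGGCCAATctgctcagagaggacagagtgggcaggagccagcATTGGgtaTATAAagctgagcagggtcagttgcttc
Alas2: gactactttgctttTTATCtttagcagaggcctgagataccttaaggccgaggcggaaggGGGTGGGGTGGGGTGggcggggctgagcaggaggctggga

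All 4 globin windows held a CACCC box together with a CCAAT box and a TATA box, as did 155 of 32851 promoter windows of the same length (0.472%). The CACCC box was in 27.2% of those windows, the CCAAT box in 18.9%, the TATA box in 10.2% and the GATA site in 8.55%. The window of Alas2 held 1 GATA site and 3 CACCC boxes, all on the opposite strand. The GATA site and the CACCC box hold core letters of sites bound by the erythroid factors GATA1 and KLF1, and a match in a window is a description of its letters only. The windows of Hba-a1 and Hba-a2 were identical over the 97 bases they share in an alignment, and those of Hbb-bs and Hbb-bt over 76.0% of 100 aligned positions. GENCODE models of Hba-a1 and Hbb-bs begin 161 and 168 bases further upstream than the RefSeq start.

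The paralogs share most of their mRNA, which limits how counts are divided between them. The mRNAs of Hba-a1 and Hba-a2 matched at 537 of 538 aligned positions, and those of Hbb-bs and Hbb-bt at 582 of 630. Of the windows of 91 bases, a common read length of this assay, in the last 400 bases of the Hba-a1 mRNA, 70.6% also occurred in Hba-a2, against 48.7% of those of Hbb-bs in Hbb-bt and 0 in an alpha gene. A read from a shared window cannot be placed in either paralog, so the split within a pair, and the level of alpha against beta, are uncertain. The sum of the 4 globin genes is therefore used below as the globin count.

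The assay was Visium, in which each capture spot of a slide holds its own barcode and captures polyadenylated mRNA from the few cells above it, read from the 3′ end. Each captured molecule carries a random tag, a UMI, so that copies made by PCR are counted as 1. The 4 sections held 2359 to 3055 spots and 3560294 to 10330015 UMIs, untrained 1 being the shallowest and trained 2 the deepest. Levels are CPM, UMIs per 1000000 UMIs of the section or region, with no correction for length because a molecule is counted once. Sections shared 57.4% to 87.7% of the barcodes of the smaller of each pair, since a barcode stands for a place on the array. Conditions were compared over sections, never over spots.

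Globin mRNA was scarce but was found in every section. The 4 genes gave 17334 of 27592052 UMIs. Trained 1 had 5811 globin UMIs, or 816 CPM (exact 95% Poisson interval 795 to 837). Trained 2 had 4686, or 454 CPM (441 to 467). Untrained 1 had 2642, or 742 CPM (714 to 771), and untrained 2 had 4195, or 637 CPM (618 to 657). The intervals cover counting error only. The highest and the lowest section were both trained, so that the untrained sections lay between them.

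The same order held for each globin gene. Hbb-bs, an adult beta-globin gene of the haplotype that C57BL/6 mice carry, was at 405, 239, 367 and 320 CPM in trained 1, trained 2, untrained 1 and untrained 2. Hba-a1 was at 189, 98.6, 165 and 139, and Hba-a2, which encodes a nearly identical alpha chain, at 164, 91, 163 and 134. Hbb-bt, the other adult beta gene of that haplotype, was at 58.7, 25.3, 48.0 and 44.4. For all 4 genes trained 2 was the lowest section and trained 1 the highest. Alas2 had 7, 7, 8 and 4 UMIs, or 0.983, 0.678, 2.25 and 0.608 CPM, and no spot held more than 1 of them.

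**Figure D1:**
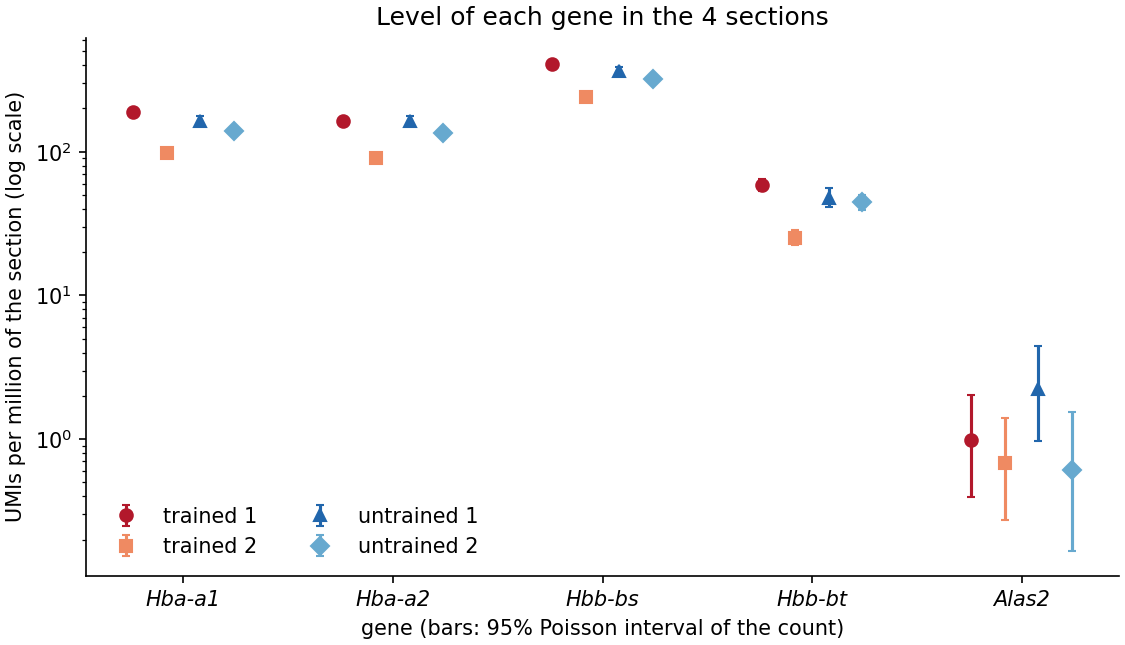
Level of each of the 5 genes in CPM of the section (log scale), with 1 point per section and bars for the exact 95% Poisson interval of the count. Trained 2 is lowest for the 4 globin genes, with Hbb-bs at 239 against 320 to 405 in the other sections, and Alas2 lies between 0.608 and 2.25.

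The proportions between the genes were steadier than their levels. The alpha genes gave 43.2%, 41.8%, 44.1% and 42.9% of the globin UMIs, with exact binomial intervals that together spanned 40.4% to 46.1%. Hbb-bs took 87.3% to 90.4% of the beta UMIs, highest in trained 2, whose interval (89.3% to 91.5%) lay above that of trained 1 (86.2% to 88.4%). Hba-a1 took 50.3% to 53.6% of the alpha UMIs. In spots with 1 to 4 globin UMIs the alpha share was 40.5% to 42.5%. In spots with 30 or more it was 41.2% in trained 1 and in untrained 2, but 47.0% in trained 2 (43.5% to 50.5%) and 49.3% in untrained 1 (44.8% to 53.8%). Only in untrained 1 did the share rise with load through all classes. In trained 2 it was 43.0% in spots with 5 to 9 UMIs and 39.1% in those with 10 to 29. In trained 1 and untrained 2 it was highest in spots with 10 to 29, at 45.6% and 46.1%. The classes of 30 or more UMIs held 9 to 20 spots each, and the intervals treat UMIs of 1 spot as independent.

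Embryonic and minor globins were near 0. Of the 6 other hemoglobin genes in the tables, Hba-x, Hbb-bh1, Hbb-bh2 and Hbq1b had 0 UMIs in all 4 sections, Hbq1a had 5 in all, and Hbb-y, an embryonic beta chain, had 1. A count of 0 allows up to 3 UMIs. The globins that brain cells make for themselves, Ngb (neuroglobin) and Cygb (cytoglobin), summed to 85.3 to 98.9 CPM, with Cygb at 1956 UMIs and Ngb at 584 over the 4 sections.

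Blood cells were otherwise hard to see. Of 23 erythroid genes in the tables, 13 had at most 10 UMIs over all 4 sections, and 6 had none, including Gata1 (the erythroid transcription factor), Epb42 and Rhag (red cell membrane proteins). Slc4a1, the anion exchanger of the red cell membrane, had 2 UMIs, and Klf1, the activator of the beta-globin gene, had 5. The erythroid genes with the most UMIs, Car2 with 7959, Bnip3l with 3543 and Mkrn1 with 3531, are also made by brain cells. White blood cell and platelet genes were as rare: 9 of 14 and 6 of 10 had at most 10 UMIs, with Trbc2 (571) and S100a9 (31) leading the former and Gp1bb (245) the latter. In the same lists Cd3e had 3 UMIs and Nkg7 had 1, while Itga2b had 120, Ppbp had 2, and Gp1ba and Tubb1 had 0. Whether blood cells gave the UMIs of Trbc2 and Gp1bb was not tested. The blood cell genes named here, Car2, Bnip3l and Mkrn1 aside, were picked after their counts were seen. The neutrophil genes were uneven, with 20 of the 31 UMIs of S100a9, 13 of the 22 of S100a8 and 16 of the 17 of Lcn2 in untrained 1, the shallowest section.

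Globin UMIs were packed into few spots. They were present in 56.5%, 45.3%, 36.0% and 44.8% of the spots of trained 1, trained 2, untrained 1 and untrained 2, below the 72.6%, 63.6%, 54.7% and 65.6% that an even spread over the same UMIs would give. With each spot thinned to 500 UMIs and shallower spots left out, the shares were 24.9%, 16.4%, 19.8% and 18.9%. The order of the sections by this share then followed their level CPM. The variance of the globin count across spots was 13.3 to 20.2 times its mean. The 1% of spots with the most globin UMIs held 23.0%, 23.4%, 31.2% and 29.6% of all globin UMIs, and the richest spots had 99, 115, 114 and 110.

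**Figure D2:**
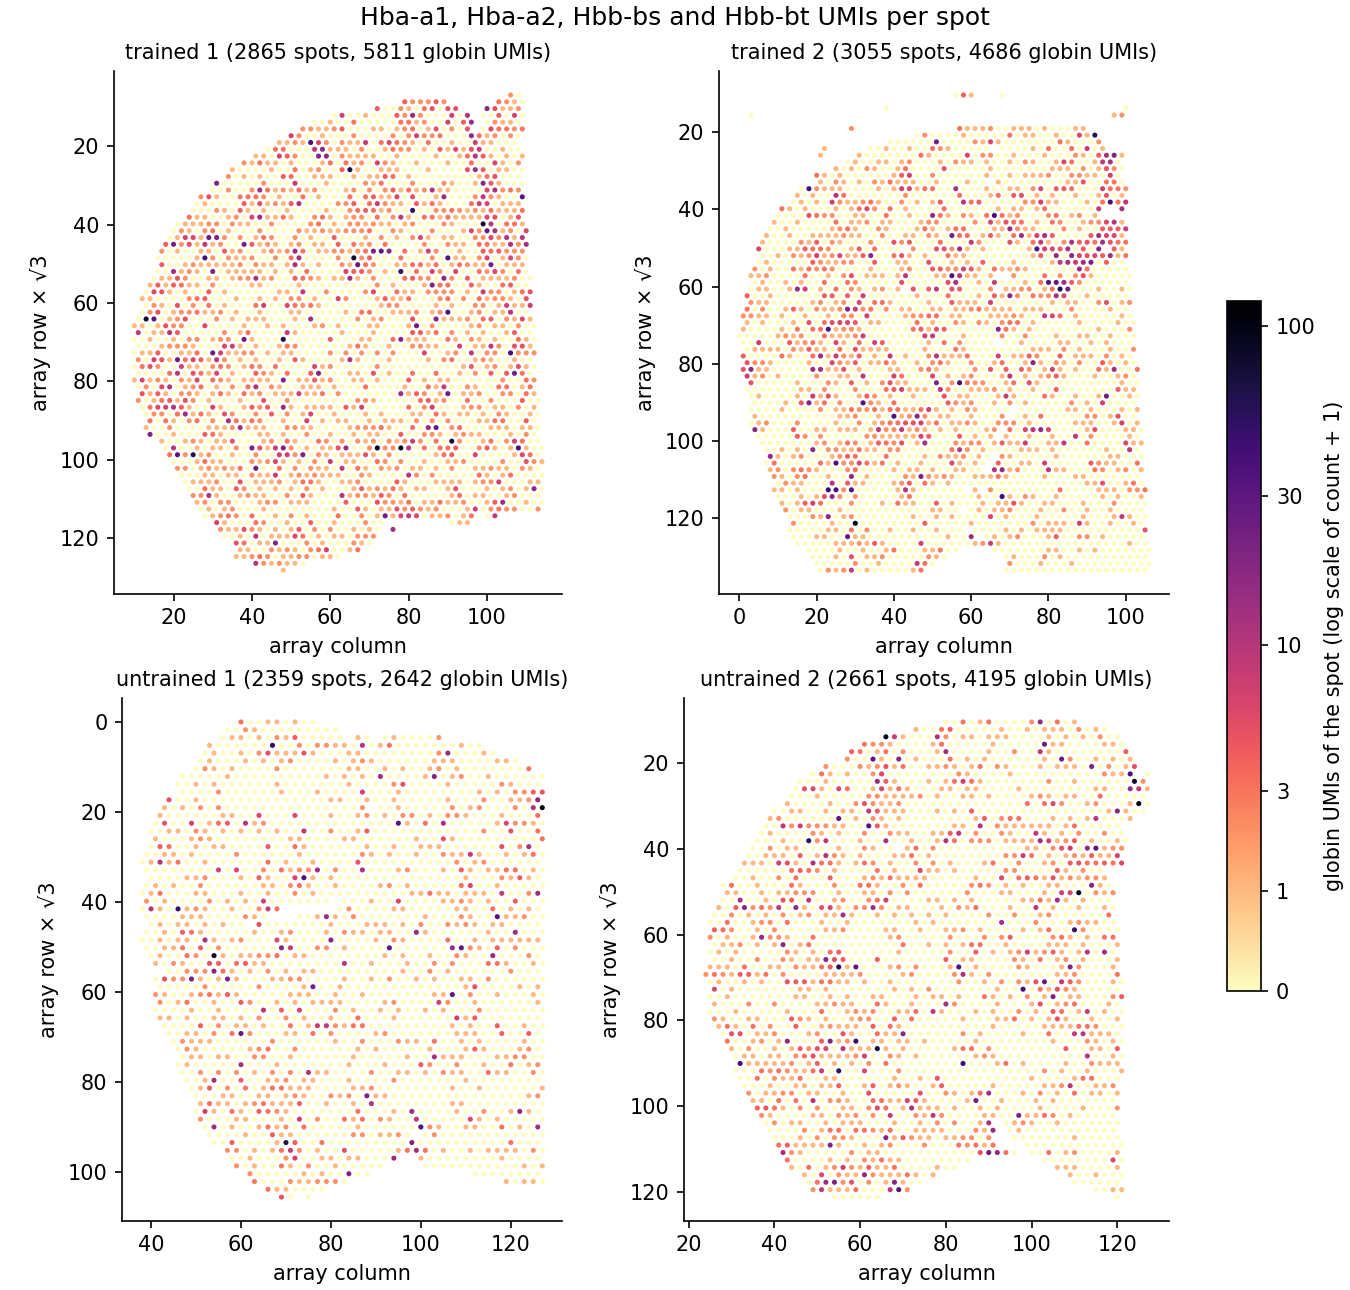
Globin UMIs of each spot (color, log scale of count + 1) at its place on the array in the 4 sections, with the array column on the horizontal axis and the array row, scaled to equal distances, on the vertical axis. The richest spot of each section has 99 to 115 UMIs, and trained 2 has in its upper right a band of 26 touching spots with at least 5 UMIs each.

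The level fell steeply from the richest spots to the spots around them, which were still above the section without its top 1% of spots. The level in the top 1% of spots was 11845, 6963, 13149 and 11593 CPM in the 4 sections. In the ring of spots that touch them it was 815, 699, 896 and 784, which is 0.999 to 1.54 times the level of the whole section. That level counts the top 1% of spots and the ring does not. Without the top 1% the sections were at 639, 353, 520 and 456 CPM, below the ring in all 4. At 3 steps the level was 392 to 543. In trained 1 the richest spot, in white matter, had 99 globin UMIs (29 of Hba-a1, 23 of Hba-a2, 40 of Hbb-bs and 7 of Hbb-bt), and its 6 neighbors had 0 to 10. In untrained 2 the richest spot, in the meninges, had 110, and its 6 neighbors had 0 or 1. That of trained 2, in no assigned region, had 115, and its 6 neighbors had 0 to 3. Others had rich neighbors. The richest spot of untrained 1, in choroid plexus at the rim, had 114, and its 3 neighbors had 3 to 17. A spot of trained 2 led by habenula genes had 57, and its 6 neighbors had 3 to 27. Of the spots with at least 5 globin UMIs, 45.8% to 65.7% touched no other such spot. The share that random placement would give was not worked out, so this does not show whether such spots are scattered or grouped.

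**Figure D3:**
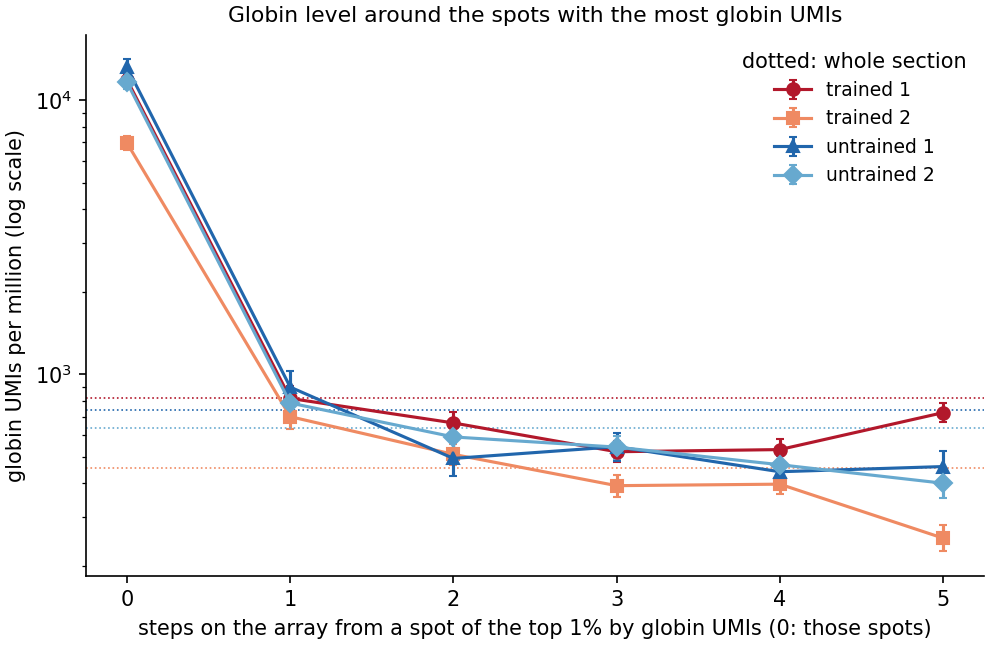
Globin level in CPM (log scale) of the top 1% of spots (step 0) and of spots 1 to 5 steps away on the array, by section, with exact 95% Poisson intervals and dotted lines for the whole section. The level falls from 6963 to 13149 at step 0 to 699 to 896 at step 1, and the dotted lines count the spots of step 0.

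Trained 2 held the group of touching spots with the most spots. There, 26 spots with at least 5 globin UMIs formed a connected band with 297 globin UMIs (6.34% of the section). The largest such group had 8 spots in trained 1 (1.34% of the globin UMIs), 4 in untrained 1 (5.56%) and 5 in untrained 2 (3.58%). By share of globin UMIs the band was thus close to the group of untrained 1. The band crossed 12 spots of the dentate gyrus (DG), 2 of CA1, 5 led by habenula genes, 3 of meninges and 2 of choroid plexus, and its highest spot had 37 globin UMIs. Its 12 DG spots held 145 of the 306 globin UMIs of DG in that section.

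Spots were placed in 14 regions by the marker list that led them, with 1191 of 10940 left unassigned. Each list was higher inside its region than outside in every section, by 1.98-fold (CA3) to 72.6-fold (choroid plexus), which the assignment by the same lists fixed and which is no check of the regions. The region led by habenula genes also takes in spots below the thalamus, so it is named by its list. By the mean of the 4 sections globin was highest in the meninges (2090 ± 788, SD, n = 4), the membranes around the brain that carry its surface vessels, with 2523, 1405, 1450 and 2984 CPM in trained 1, trained 2, untrained 1 and untrained 2. That is 1.95 to 4.68 times the level of the same section, above it in 4 of 4 sections. White matter, with 1434, 563, 1056 and 849, was the other region above its own section in all 4, by 1.24 to 1.76 times. CPM is a share of the UMIs of a region, and white matter spots were shallow, at medians of 840, 2032, 451 and 768 UMIs. The medians were 1068, 1478, 737.5 and 1712.5 in meninges and 1936, 2493, 1048 and 1851 over all spots. A globin UMI was in 41.1%, 47.1%, 23.9% and 29.5% of white matter spots, against 56.5%, 45.3%, 36.0% and 44.8% of all spots. The part of depth in the levels by region was not tested. With regions drawn from each spot alone, without its neighbors, the meninges (919 to 2406 CPM) were still above in all 4, but white matter was below in untrained 2 (594 against 637), and choroid plexus (668 to 2586) and ependyma (641 to 870) were above in all 4.

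The choroid plexus, a richly vascular tissue that makes cerebrospinal fluid, was at 1493, 521, 5054 and 540 CPM, above the meninges in untrained 1, and its mean of 1902 ± 2150 could not be told from theirs. The value of untrained 1 rested on 41 spots, of which 1 held 114 of the 230 globin UMIs, and without that spot it was 2636. CA3, at 499, 381, 340 and 248, was the lowest region by its mean of 367 ± 104 (SD, n = 4), and lay below its own section in all 4. Hypothalamus (469 ± 261) and layer 6 cortex (493 ± 171) were also below their section in all 4, but hypothalamus was not in regions drawn from each spot alone (960 against 742 in untrained 1). In the order of the 14 means, none of the 13 pairs of neighbors differed by more than the larger of their SDs, so the order of neighbors is not firm.

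**Figure D4:**
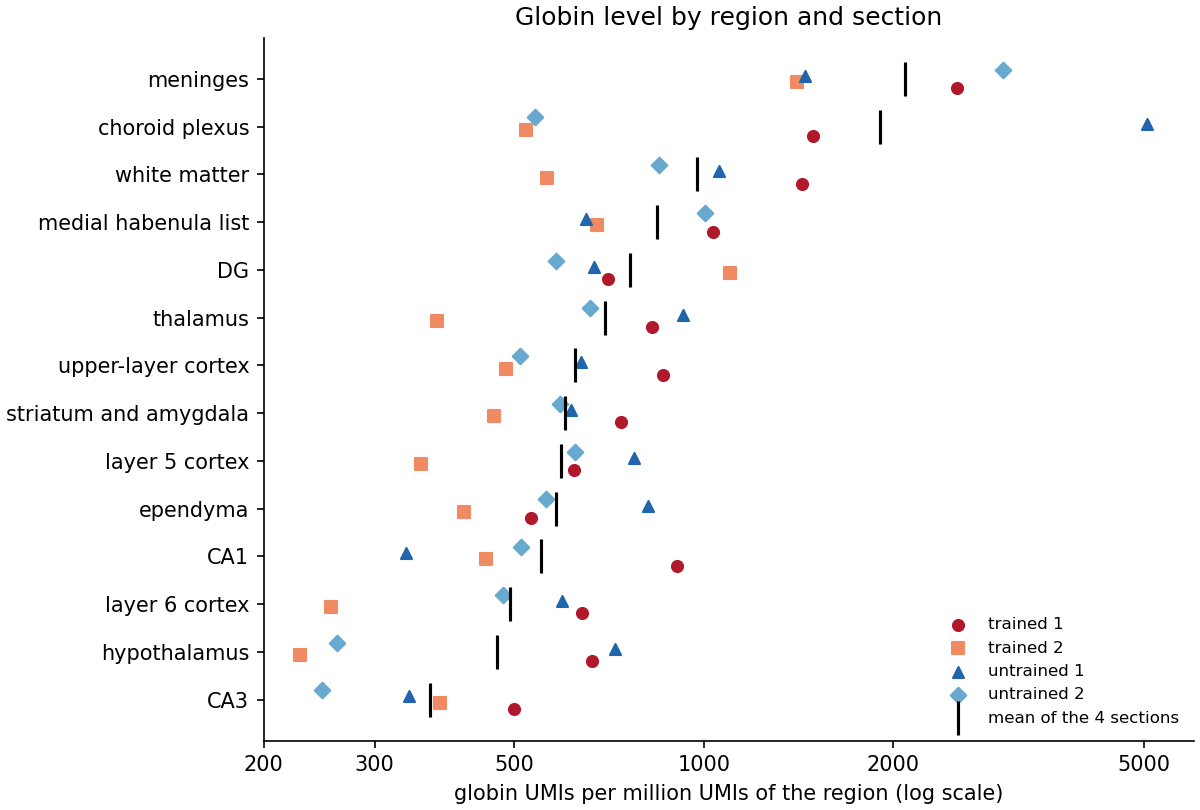
Globin CPM of the region (log scale) in each section, for 14 regions ordered by the mean of the 4 sections (black bars). Meninges lie at 1405 to 2984 in every section, CA3 at 248 to 499, and the choroid plexus of untrained 1 at 5054.

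The outer rim of the sections was also rich in globin. Spots with fewer than 6 neighbors over tissue had 1408, 748, 1649 and 1404 CPM, against 785, 428, 676 and 585 in the interior, a ratio of 1.79, 1.75, 2.44 and 2.40. This comparison was chosen after the data were seen. Rim spots were shallower, with medians of 725 to 1894 UMIs against 1091 to 2588 inside, and 40.5% to 55.6% of the meningeal spots were rim spots. The part of depth in these ratios was not tested.

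Spots rich in an alpha gene tended to be rich in the beta genes. Across the 2359 to 3055 spots of a section, Pearson's r between Hba-a1 and Hba-a2 was 0.395 to 0.419, and between the summed alpha and the summed beta genes 0.430 to 0.480, on log counts per 10000 UMIs. Pairs with Hbb-bt, the least abundant globin, had r of 0.289 to 0.357. These are descriptions over spots that share a library and its depth. Without the top 1% of spots, the alpha and beta genes still had r of 0.348 to 0.418. With Alas2, r was 0.0677 to 0.144, which with 26 UMIs in all is too sparse to read.

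Alas2 can be followed better by where its UMIs fell. Of its 26 UMIs, 17 (65.4%) lay in the globin-rich spots defined below, which were 962 of 10940 spots (8.79%), with 8 in other spots and 1 in a spot under 500 UMIs. By section, 5 of 7, 4 of 7, 4 of 8 and 4 of 4 lay in rich spots. Spots with an Alas2 UMI had a median of 11, 19, 8.5 and 36.5 globin UMIs, against 1, 0, 0 and 0 over all spots. Since the gene was chosen with its spot correlation known, these counts are not tested.

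Among 10615 other genes with a UMI in at least 1% of the spots of every section, none followed the globin sum closely. The 10 with the highest mean r over the 4 sections were mt-Nd2 (0.124), Ptgds (0.121), mt-Atp6 (0.119), Mt1 (0.107), mt-Nd4 (0.106), mt-Co1 (0.105), Ttr (0.104), mt-Co2 (0.103), mt-Nd3 (0.102) and mt-Nd1 (0.101). The median over all of them was 0.0119. Correlations of this size in sparse counts are no finding.

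To ask what else differed where globin was dense, the 10% of spots of each region and section with the most globin UMIs per UMI were compared with the rest, among spots of at least 500 UMIs. The 182 to 281 globin-rich spots of a section held 51.7% to 59.4% of its globin UMIs, at 3222 to 5862 CPM against 225 to 415 in the other spots. The ranking itself fixed this gap. A globin-rich spot could hold as few as 1 globin UMI, and the medians were 6, 5, 4 and 4 in the 4 sections. Ranking within regions gave both sides the same regional makeup. The 4 globin genes chose the spots and were left out of the totals and the test, which was edgeR's quasi-likelihood test on the 8 sums with the section as a block, Benjamini-Hochberg adjusted over 11496 genes. Globin-rich spots were shallower than the others, at medians of 1562, 1939, 1068 and 1649 UMIs against 2204, 2829, 1404 and 2092, and the part of depth in the results was not tested.

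Few genes differed between globin-rich and other spots. At the threshold of 0.05, 55 genes rose (0.478% of those tested) and 11 fell (0.0957%), 66 in all (0.574%). Alas2 is 1 of the 55 because the fit covers every gene, and since its spot correlation was known beforehand its call is no result. Without it, 54 genes rose, 50 of them in all 4 sections, and of the 11 that fell 10 were lower in all 4.

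Among called genes higher in all 4 sections, Alas2 had the largest log2 fold change (4.58, given as a description), and the 9 that followed were Srgn, Ifitm3, Gfap, Ptgds, Arid2, Vtn, Id3, C1qb and Aqp4. Srgn, a proteoglycan of blood and endothelial cells, rose by 0.997 ± 0.250 on the log2 scale (SE, adjusted p = 0.0248). Ifitm3, an interferon-induced membrane protein, rose by 0.89 ± 0.20 (adjusted p = 0.00462). Ptgds, the prostaglandin D synthase of meninges and oligodendrocytes, rose by 0.75 ± 0.04 (adjusted p = 3.82e-30). Gfap, the intermediate filament of astrocytes, rose by 0.76, Id3, a transcriptional regulator, by 0.59, and Arid2, a chromatin remodeling subunit, by 0.72 (adjusted p = 0.0446). That all 6 were higher in 4 of 4 sections was fixed by this choice.

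Most listed genes of each cell type did not pass the test, except that 4 of 8 astrocyte genes did. In endothelium, 1 of 16 tested genes was called, Pltp, a phospholipid transfer protein (log2 0.48, adjusted p = 0.0299), 14 were above 0 and the median was 0.39. In pericytes, the contractile cells of capillaries, 1 of 7 was called, Vtn (vitronectin; log2 0.70, adjusted p = 0.000183), 7 were above 0 and the median was 0.48. For comparison, the median over all genes was 0.00 and 50.4% were above 0. Arterial smooth muscle had 0 of 6 called and a median of 0.26, with Myl9 at 0.26, Mylk at 0.17 and Tpm2 at 0.03.

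Of 8 astrocyte genes, 4 rose: Gfap, Aqp4 (log2 0.53, adjusted p = 0.0457), the water channel of the endfeet that cover vessels, Aldoc (0.17) and the glutamate transporter Slc1a2 (0.16). All 8 were above 0, with a median of 0.27. Of 8 microglial genes 1 rose, C1qb, a chain of complement C1q (log2 0.56, adjusted p = 0.00124), and the 8 were all above 0 with a median of 0.37. Of 8 neuronal genes 1 fell, Nrgn (neurogranin), by 0.18 on the log2 scale (adjusted p = 0.0121), and the median was -0.05. Stab1, the 1 border macrophage gene that could be tested of 8, was at 0.48 (adjusted p = 0.837).

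**Figure D5:**
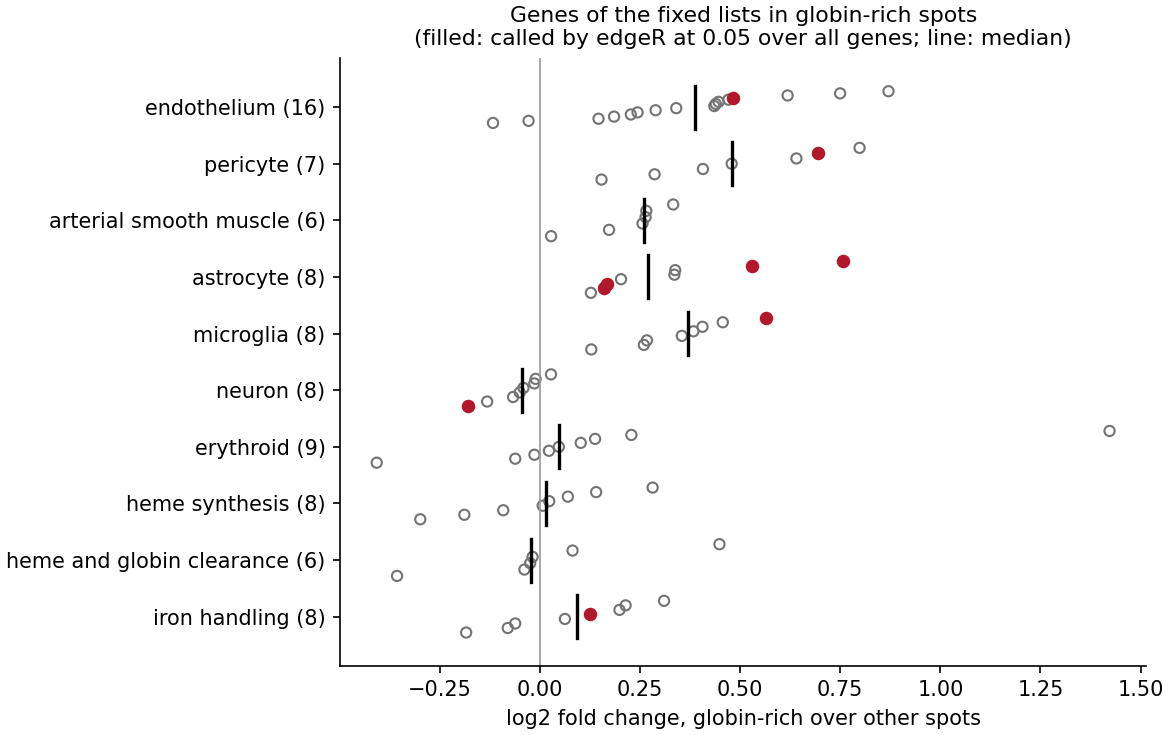
Log2 fold change of globin-rich over other spots for each tested gene of 10 lists (number tested in brackets), with filled points for genes called by edgeR at an adjusted p under 0.05 and black lines for list medians. Medians are 0.39 for endothelium, 0.48 for pericytes, 0.37 for microglia, -0.05 for neurons and 0.01 for heme synthesis.

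No gene of heme synthesis passed the test. Of 8 heme synthesis genes other than Alas2, 0 were called, and the most abundant, Fech (ferrochelatase, the last enzyme), Alas1 (the enzyme of non-erythroid cells) and Urod, were at -0.19, 0.07 and 0.02, with a median of 0.01 over the list. Of 6 tested genes for clearing heme and globin, 0 were called, with Slc48a1 (a heme transporter) at -0.04, Lrp1 (the receptor of heme bound to hemopexin) at 0.08 and Hmox2 (the constitutive heme oxygenase) at -0.02. Among 8 iron genes, Fth1, the ferritin heavy chain, rose by 0.12 on the log2 scale (adjusted p = 0.0478). The 9 tested erythroid genes gave 0 calls, among them Car2 (0.23), Bnip3l (0.02) and Mkrn1 (-0.01). Ube2l6, a ubiquitin-conjugating enzyme, had the highest fold of that list at 1.42 (adjusted p = 0.120), named here after its value was seen. Cygb (0.07), Ngb (-0.14), Trbc2 (0.06) and Gp1bb (-0.20) did not pass either.

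Among called genes lower in all 4 sections, the largest falls included Fgd4, an activator of Cdc42 (log2 -1.30, adjusted p = 0.0482), Zbtb18, a neuronal transcriptional repressor (-0.47, adjusted p = 0.000594), Synpr, a synaptic vesicle protein (-0.42), and Hpca, the calcium sensor hippocalcin (-0.34, adjusted p = 1.60e-05). Chosen after the values were seen, 10 of 13 mitochondrially encoded genes rose, with a median log2 fold change of 0.23.

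Each gene named here as called in this comparison, Alas2 aside, kept its direction in 15 of 15 alternative settings, but the calls of many did not hold. Ptgds was called in 14 of 15, Hpca in 12, Vtn, C1qb and Zbtb18 in 10, but Pltp, the endothelial gene, in 4, Srgn in 3, and Aqp4, Aldoc, Slc1a2 and Fgd4 in 2. Without trained 1 the number of called genes was 39, and without untrained 2 it was 43, against 66. With spots ranked after thinning to 500 UMIs it was 29. With no filter on low counts it was 70, split into 36 higher and 34 lower.

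The remaining question was whether globin differed between trained and untrained mice. Over whole sections the ranges overlapped, the 4 globins averaging 635 ± 256 CPM in trained and 690 ± 74.0 in untrained sections (SD, n = 2 each). The fitted log2 fold changes of trained over untrained were -0.15 for Hba-a1, -0.29 for Hba-a2, -0.16 for Hbb-bs and -0.22 for Hbb-bt, described here without a test. All 4 were below 0, while 51.6% of all genes were above 0. They turned on which trained section was kept. Without trained 2 they ran from 0.12 to 0.33, and without trained 1 from -1.001 to -0.66. Across all 13810 genes tested in the same fit, 2 were called (0.0145%), neither of them in the gene lists used here. This count was 848 without trained 1, 40 without trained 2 and 9 without untrained 2, in fits that leave 1 section in a group and assume that it varies like the other group, so that they are not comparable with the count of 2. No vascular gene was called there, with 0 of 17 endothelial genes called at a median of 0.07, 0 of 9 pericyte genes at 0.28 and 0 of 6 smooth muscle genes at -0.08, against 0.01 over all genes.

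In the hippocampal cell layers, CA1, CA3 and DG together, the globins were at 708 and 622 CPM in trained 1 and trained 2, and at 471 and 482 in untrained 1 and untrained 2. Both trained sections lay above both untrained sections, as 18% of the 8992 genes tested there also did. The log2 fold changes were 0.63 for Hba-a1, 0.46 for Hba-a2, 0.46 for Hbb-bs and 0.06 for Hbb-bt, beside a median of 0.00 over all genes, of which 50.5% were above 0. That of Hbb-bt fell below 0 without rim spots, without smoothing of the regions, without trained 1 and without untrained 1. By layer, CA3 (499 and 381 against 340 and 248) and DG (705 and 1098 against 669 and 583) did not overlap, whereas CA1 (905 and 450 against 337 and 512) did. With regions drawn from each spot alone this turned around: CA3 (411 and 179 against 116 and 271) and DG (481 and 1020 against 814 and 512) overlapped, and CA1 (781 and 432 against 290 and 172) did not, with 5 CA1 and 8 CA3 spots in untrained 1. Among genes with at least 100 UMIs in the layer, 22.3% in CA3 and 12.8% in DG also had both trained sections above both untrained sections. Alas2 had 1 UMI in these layers, in untrained 1.

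Without the top 1% of spots of each section the hippocampal cell layers were at 602 and 464 CPM in trained and 416 and 437 in untrained sections, and without rim spots at 664 and 637 against 481 and 483, so that the groups stayed apart. Without the connected band described above, the hippocampal cell layers of trained 2 were at 474 CPM, between the untrained sections, and DG of trained 2 was at 711. Leaving out the band was chosen after the data were seen. The band was defined by globin itself and lowers these layers in trained 2 alone, since the largest group of no other section reached them, so that its direction was fixed by the choice. With regions drawn from the spot alone, without its neighbors, the values were 555 and 558 in trained and 675 and 347 in untrained sections, which overlapped, with untrained 1 resting on 48 spots. No gene was called in the hippocampal fit (0 of 8992, with 442 at an unadjusted p under 0.05 by edgeR, and 0 and 49 by DESeq2), and in the fits that leave 1 section in a group, with the same assumption, 157 were called without trained 1, 7 without trained 2 and 3 without untrained 1. The endothelial genes there had a median of 0.18 with 0 of 11 called, microglial genes 0.42 with 0 of 8, and astrocyte genes 0.28 with 0 of 8.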

How the data were processed

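Visium counts of 4 sections were analysed. Per the file headers and the methods, the authors ran Space Ranger (1.2.2 in the headers of the count files; the methods name another version and the mm10 reference, and the submitters' processing notes list mm39, Cell Ranger 8 and STAR). The deposited values are UMI counts per gene and spot over tissue, not normalized. Replicates were not pooled. The matched mm10 annotations are GENCODE vM21 and RefSeq GRCm38.p6. How reads shared by paralogs were treated is not given in the sources used here.

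From these, UMIs were summed per section, region or spot class (Python 3.11.15, scipy 1.17.1). Regions came from marker lists scored over each spot and its neighbors, with a minimum score of 0.5 SD, and CA1, CA3 and DG were kept to their largest connected group. The depth of trained 1 was 7119995 UMIs and that of trained 2 was 10330015, against 3560294 for untrained 1 and 6581748 for untrained 2. The quasi-likelihood test of edgeR 4.0.16 was run on TMM-scaled sums after its filterByExpr step, calling genes at a Benjamini-Hochberg adjusted p under 0.05. DESeq2 1.42.0 served as an alternative. Spots of a section come from 1 mouse and were not used as replicates. The study's own test over spots was not rerun. In the simulated check of the globin-rich comparison, 92 of 100 genes changed 2-fold were recovered. For trained against untrained the numbers were 67 for whole sections and 47 for the hippocampal layers. Genes without a change made up 9 of 201, 11 of 178 and 9 of 156 calls, in this order of comparisons. The simulated counts had the same fixed spread for every gene, not set from these data, and only genes above a count floor were changed. The numbers need not hold for the real spread between mice. The labels do not say that replicate numbers pair the animals. Deviations from the group means correlated at 0.0182 between sections of like number (13810 genes). With 2 sections in a group this shows no shared shift but cannot exclude a pairing.

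Named genes are the 5 members, the other hemoglobin genes, the called genes of each list or its 3 with the most UMIs, the 10 largest rises and 5 largest falls with 1 direction in all 4 sections, and the 10 genes most like the globin sum. Some genes that this rule names are not reported here, and genes named outside it are marked in the text as picked after their values were seen. The members and lists were chosen with earlier results of these data known.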

Additional observations from a re-analysis of the deposited data

Results flagged for a closer look

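Of 14 regions, 2 had both trained sections above both untrained sections for the summed globins and 2 had both below, and the hippocampal cell layers as a whole also had both above. Among genes with at least 100 UMIs in the region, a comparison chosen after seeing the data, 22.3% lay above in this way in CA3 and 12.8% in DG, and 12.1% lay below in layer 5 cortex and 16.5% in ependyma. In the hippocampal cell layers 18% of the genes tested lay above. The difference of the means, trained minus untrained, was 146 CPM in CA3, 276 in DG and 188 in the hippocampal cell layers as a whole, and it was -210.5 in layer 5 cortex and -216 in ependyma. That these regions differ from each other was not tested. With regions drawn from each spot alone none of these held: CA3 (411 and 179 against 116 and 271), DG (481 and 1020 against 814 and 512), layer 5 cortex (703 and 381 against 516 and 768) and the hippocampal cell layers (555 and 558 against 675 and 347) overlapped, and ependyma turned, with trained (870 and 824) above untrained sections (782 and 641). Set against the level of the same section, DG no longer separated the conditions (0.863 and 2.42 times in trained, 0.902 and 0.914 in untrained sections), nor did ependyma, whereas CA3 (0.611 and 0.839 against 0.458 and 0.388), layer 5 cortex (0.763 and 0.782 against 1.04 and 0.980) and the hippocampal cell layers (0.867 and 1.37 against 0.635 and 0.757) did.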

How the results depend on the processing

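The size of the globin levels rested on few spots. Without the top 1% of spots by globin UMIs, whole sections were at 496 CPM in trained and 488 in untrained mice, turning the order of these means, the meninges at 1198, and the hippocampal cell layers at 533 in trained and 427 in untrained sections. With regions drawn without smoothing, these layers were at 556 and 511, and CA3 at 244. Without the largest group of touching spots of each section, an alternative chosen after seeing the data, the trained layers were at 591. The mean share of spots with a globin UMI was 45.7%, and 20.02% after thinning or 23.1% with at least 2 UMIs. The mean r of 0.410 between Hba-a1 and Hba-a2 was 0.376 after thinning, 0.302 by Spearman and 0.318 without the top spots, and that of alpha with beta (0.447) was 0.471, 0.340 and 0.3796. For whole sections, trained against untrained, 20 genes were called by DESeq2, 211 with no filter and 4 with thinned sums, and 2 to 848 with each section left out. With the replicate number as a block 47 genes were called there and 5 in the hippocampal layers, though the labels do not say that these numbers pair animals. For those layers 10 genes were called with no filter, 1 with thinned sums, and 0 to 157 with each section left out. For globin-rich spots 21 genes were called with the top 5%, 154 with the top 20%, 29 with thinned ranking, 31 by DESeq2, 1 with no section block, 103 without smoothing, 34 in trained and 23 in untrained sections alone, and 39 to 49 with each section left out. The cause of these changes was not tested. A group of 2 mice and 26 Alas2 UMIs limit what could be seen.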
